A study of Mus musculus with 7 samples.

Results

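Transcripts of 9 genes known from basophils, mast cells and eosinophils were examined in T-cells of ORP4L knock-in (KI) mice and wild-type (WT) littermates. The genes were picked by name (Mcpt8, Fcer1a, Ms4a2, Cpa3, Prss34, Prg2, Epx, Il5ra and Ccr3), and all 9 were found among the 25033 genes listed for each library. RNA of 4 ORP4L KI and 3 WT mice was sequenced, with 1 library per mouse, and reads were counted per gene. All mice were C57BL/6J and 15 months old. ORP4L is an oxysterol-binding protein that carries lipids between membranes. The ORP4L KI mice carried the human ORP4L coding sequence with a Flag tag in the Rosa26 locus, behind a CAG promoter and a stop cassette flanked by loxP sites, together with a Cre transgene driven by the T-cell Lck promoter, and the study describes the sequenced KI mice as moribund. WT mice were littermates, and the labels do not say which transgenes they carried. T-cells came from blood or spleen, and neither the labels nor the methods say which source was used for a given library. The methods describe a kit for naive CD4+ T-cells and, after it, culture with IL-2 and PHA, and do not say whether the sequenced cells went through either.

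Basophils, mast cells and eosinophils are rare granule-filled leukocytes that take part in allergy and in defence against parasites. Basophils and mast cells carry the high-affinity IgE receptor, whose α chain (Fcer1a) binds IgE and whose β chain (Ms4a2) amplifies the signal, and they store proteases such as Mcpt8, Prss34 and Cpa3. Eosinophils store the cationic granule proteins major basic protein (Prg2) and eosinophil peroxidase (Epx), and mature under interleukin-5, which acts through Il5ra, while Ccr3 is the receptor that answers eotaxin. Eosinophils and basophils mature in the bone marrow, where they fill their granules, whereas mast cells leave it as progenitors and mature in tissues.

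In the libraries of ORP4L KI T-cells the granule genes Prg2, Epx and Prss34 were higher than in those of WT T-cells, by 20.7-fold, 17.3-fold and 7.44-fold. The receptor genes Il5ra and Ccr3 had log2 fold changes of -0.01 each. The basophil protease Mcpt8 and the mast cell carboxypeptidase Cpa3 had higher means in ORP4L KI but were not past the thresholds, and Fcer1a was too low to be judged. The call required both a p below 0.01 before adjustment and a change of more than 1 log2 unit, in edgeR's quasi-likelihood test over 13462 genes. At these thresholds 3 of the 8 members that passed the filter for low counts were called, all higher in ORP4L KI. Of all genes tested, 4.68% were called in either direction, 2.38% higher and 2.3% lower. Epx, which was called, and Ms4a2, which was not, reached the filter's cutoff in 2 of 3 WT libraries. Both passed through their ORP4L KI libraries, all 4 of which reached it. With a minimum of reads required in every library, 5 members were tested and 2 were called, Prg2 and Cpa3. Epx and Prss34 were not tested under that filter, where 478 of 12055 genes were called. Scaled by total counts alone, the calls over all genes were 275 higher and 407 lower, in place of 320 and 310, and 3 members were again called. Not one of these 8 genes reached an adjusted p of 0.05 in edgeR's quasi-likelihood test, as 0.0223% of all genes did. At an unadjusted p under 0.05 the number of members was 5, where 13.7% of all genes passed, and by DESeq2's Wald test 4 members had an adjusted p under 0.05, as had 5.82% of all genes. The call count rested on single libraries. It was 0 without WT replicate 3, 1 without WT replicate 2 and 5 without ORP4L KI replicate 2.

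The libraries held between 12918187 and 15912921 counts in WT and between 16757959 and 19665679 in ORP4L KI. Reads assigned to mouse Osbp2, the ortholog of the inserted human ORP4L, numbered 0, 0 and 1 in WT and 188, 742, 155 and 443 in ORP4L KI replicates 1 to 4. Transcripts of 10 T-cell genes, among them Cd3e, Cd4 and Cd8a, were found in every library. Their summed level was 2127 to 2820 CPM (reads scaled to library size by TMM) in WT and 1368 to 3564 CPM in ORP4L KI. This sum was lowest in ORP4L KI replicate 1, below every WT library, and highest in ORP4L KI replicate 2, above every WT library. Neutrophil granule genes differed between the groups. All 14 of 14 were past the thresholds and higher in ORP4L KI, where 2.38% of all genes tested were. Their number with an adjusted p under 0.05 in edgeR's quasi-likelihood test was 0. In 12 of the 14 every ORP4L KI library lay above every WT library, as in 6.43% of all genes tested. None was at 0 in any library. Their summed level was 1847 to 5019 CPM in WT and 10436 to 145089 CPM in ORP4L KI. Within ORP4L KI it was highest in replicate 1 and lowest in replicate 2. Markers of further cell types moved too. The macrophage receptor gene Csf1r and the NK cell receptor gene Ncr1 were called lower (log2 fold changes of -1.17 and -1.86), and the monocyte antigen gene Ly6c2 was called higher (1.27). The globin genes Hbb-bs and Hba-a1 had log2 fold changes of -1.72 and -1.50, not past the thresholds. Every ORP4L KI library was below WT for both, as for 7.38% of all genes tested. The part of the neutrophil genes and of these markers in the results below was not tested. In such bulk libraries, fewer cells of a type and less RNA per cell cannot be told apart.

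All 9 members together took 0.00197% to 0.00518% of the counts in WT and 0.00758% to 0.0738% in ORP4L KI. Per transcript length, Prg2 was the most abundant member in both groups, at 16.9 ± 16.7 RPKM (SD, n = 3) in WT and 287 ± 304 RPKM (SD, n = 4) in ORP4L KI. In WT the next levels, from 1.70 ± 0.827 RPKM of Mcpt8 down to 0.912 ± 0.693 RPKM of Prss34, lay within each other's spread, with Cpa3, Ccr3, Epx and Il5ra between them. The order differed in ORP4L KI, where Epx came next (16.0 ± 11.5 RPKM), then Mcpt8 (6.12 ± 5.29 RPKM) and Prss34 (5.75 ± 4.92 RPKM), and the spread of each reached its neighbour. Ms4a2 and Fcer1a were lowest in both groups, at 0.406 ± 0.278 and 0.169 ± 0.191 RPKM in WT and 0.485 ± 0.138 and 0.724 ± 0.772 RPKM in ORP4L KI. The 4 eosinophil members summed to 40.3, 16.6 and 12.9 CPM in WT replicates 1 to 3, and to 839, 64.7, 121 and 295 CPM in ORP4L KI replicates 1 to 4. The 5 basophil and mast cell members summed to 7.52, 3.58 and 4.99 CPM in WT and to 44.1, 4.93, 19.7 and 15.0 CPM in ORP4L KI. The ORP4L KI libraries all lay above WT for the eosinophil sum, while ORP4L KI replicate 2 lay among the WT libraries for the basophil and mast cell sum. Prg2 made up most of the members' CPM in ORP4L KI, with 62.5% to 82.5%, while its share in WT was 24.7% to 58.4%.

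**Figure D1:**
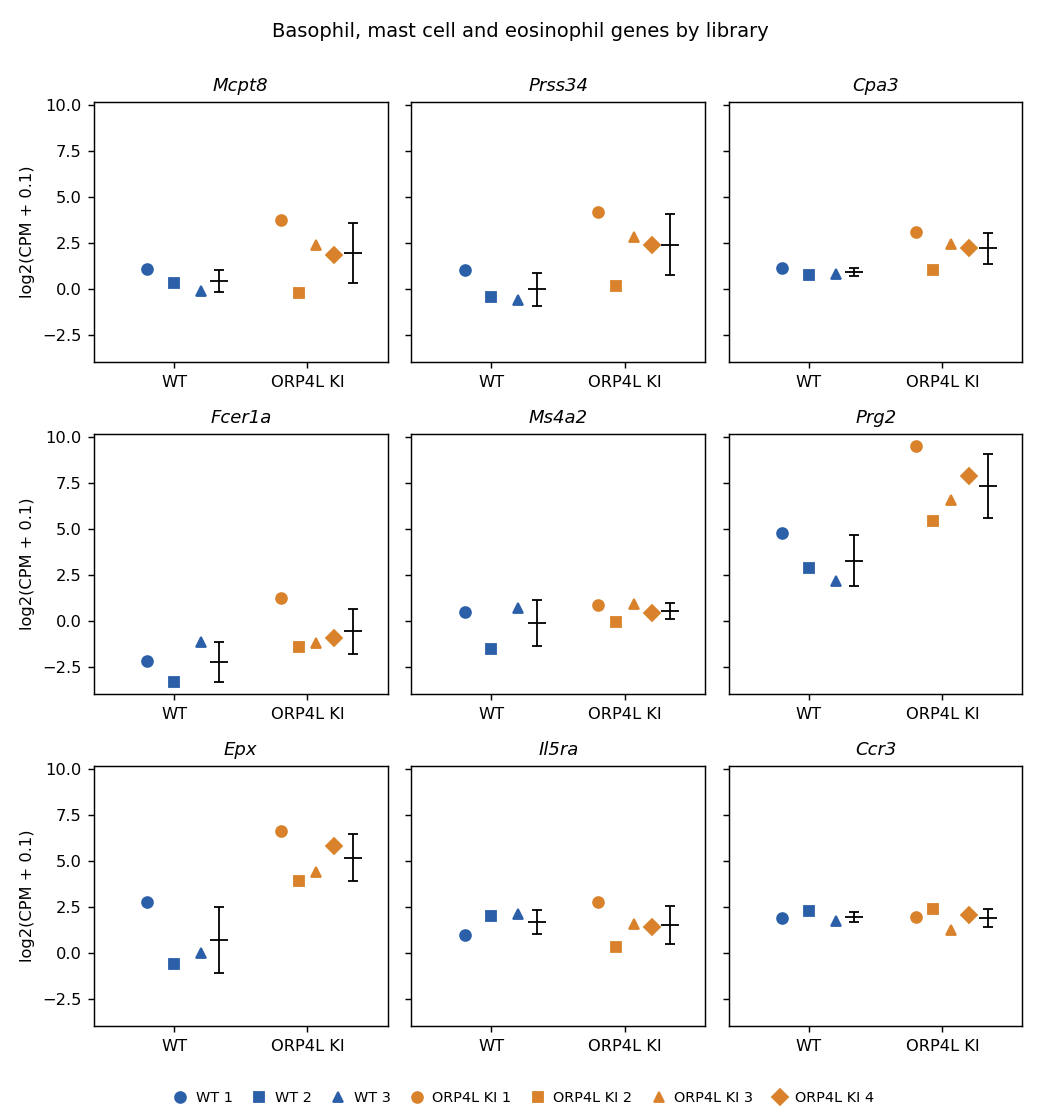
Level of each of the 9 genes in each library, as log2(CPM + 0.1) with CPM scaled by TMM, in 3 WT (blue) and 4 ORP4L KI (orange) mice. Symbols mark the replicate number, and the black bar gives the group mean and SD on this scale. Prg2 and Epx are the genes in which all 4 ORP4L KI libraries sit above all 3 WT libraries, and Il5ra and Ccr3 overlap between the groups.

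Prg2 encodes major basic protein, the main component of the eosinophil granule core. It had 450, 116 and 63 reads in WT replicates 1 to 3 and 11974, 794, 1654 and 3732 reads in ORP4L KI replicates 1 to 4. Once scaled, all 4 ORP4L KI libraries exceeded all 3 WT libraries, and within ORP4L KI the highest library had 16.8 times the CPM of the lowest. The mean was 13.2 ± 12.8 CPM (SD, n = 3) in WT and 275 ± 313 CPM (SD, n = 4) in ORP4L KI. Its log2 fold change was 4.37 (SE 1.08, unadjusted p = 0.00264, edgeR adjusted p = 0.109). Permuting the labels exactly, in all 35 ways to divide 4 from 3 libraries, gave a two-sided p of 0.0571 for log2 CPM. Leaving out WT replicate 2 or WT replicate 3 took Prg2 out of the thresholds, with unadjusted p-values of 0.0121 and 0.0140 by edgeR, and the log2 fold change was 3.22 without ORP4L KI replicate 1 and 5.55 without WT replicate 1.

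Epx encodes eosinophil peroxidase, which makes hypobromous acid against microbes and parasites. It had 109, 9 and 13 reads in WT and 1633, 271, 365 and 908 reads in ORP4L KI replicates 1 to 4. The groups did not overlap, since the lowest ORP4L KI library (14.8 CPM) was above the highest WT library (6.77 CPM). Of all genes tested, 6.43% had every ORP4L KI library above every WT library, and of the 8 members tested 2 did, Prg2 and Epx. The log2 fold change of Epx was 4.11 (SE 0.98, unadjusted p = 0.00210, edgeR adjusted p = 0.09997), and the exact permutation test gave a two-sided p of 0.0286, the smallest that 4 against 3 allow. Epx passed the filter through its ORP4L KI libraries, as only 2 of 3 WT libraries reached 10 reads at the median depth. Without WT replicate 3 its unadjusted p was 0.0116 by edgeR, and its log2 fold change was 6.01 without WT replicate 1 and 3.47 without ORP4L KI replicate 1. Ms4a2 likewise reached this in 2 of 3 WT libraries. Epx and Mpo are close paralogs, as are Prg2 and Prg3, and the methods do not say how reads that match both of a pair were divided.

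Il5ra, the α chain of the interleukin-5 receptor, had 30, 63 and 62 reads in WT and 113, 21, 51 and 41 reads in ORP4L KI replicates 1 to 4. ORP4L KI replicate 1 was the highest of all 7 libraries and replicate 2 the lowest, with the WT libraries between them. Its level was 3.39 ± 1.34 CPM (SD, n = 3) in WT and 3.38 ± 2.46 CPM (SD, n = 4) in ORP4L KI (log2 fold change -0.01 ± 0.56 SE, edgeR adjusted p = 0.997). Ccr3, the eotaxin receptor, had 60, 76 and 46 reads in WT and 63, 95, 40 and 67 reads in ORP4L KI. Its groups overlapped too, and here replicate 2 was the highest ORP4L KI library. Ccr3 stood at 3.91 ± 0.791 CPM (SD, n = 3) in WT and 3.88 ± 1.2 CPM (SD, n = 4) in ORP4L KI (log2 fold change -0.01 ± 0.34 SE, edgeR adjusted p = 0.992). The sign of both differences turned with DESeq2's size factors, to 0.0063 for Il5ra and 0.00054 for Ccr3.

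Other genes of the eosinophil lineage were examined as a list. Of 15 listed, 14 were in the files and 11 passed the filter, of which 3 were called higher and 0 lower, where 2.38% and 2.3% of all genes were. The log2 fold change was above 0 for 7 of the 11, with a median of 0.64 against 0.01 over all genes tested. Ear1, a ribonuclease of eosinophil granules, had 38, 17 and 8 reads in WT and 1857, 207, 243 and 514 reads in ORP4L KI (log2 fold change 4.98 ± 0.97 SE, edgeR adjusted p = 0.0680). Ear6, a related ribonuclease, had 37, 10 and 0 reads in WT and 1093, 161, 167 and 331 reads in ORP4L KI (log2 fold change 4.72 ± 1.09 SE, edgeR adjusted p = 0.0965). Alox15, a lipoxygenase that makes eosinophil lipid mediators, had 61, 14 and 16 reads in WT and 642, 203, 206 and 325 reads in ORP4L KI (log2 fold change 3.40 ± 0.65 SE, edgeR adjusted p = 0.0659). In these 3 genes every ORP4L KI library lay above every WT library, as in 6.43% of all genes tested. The 3 were picked as past the thresholds, and each stayed past them in all 7 fits that left out 1 library. Ear6, like Epx, reached 10 reads at the median depth in 2 of 3 WT libraries and passed the filter through its ORP4L KI libraries. Members of the Ear family are near-identical, so the division of reads among Ear1, Ear2 and Ear6 is uncertain.

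Not past the thresholds were Prg3, the paralog of Prg2, with 49, 18 and 10 reads in WT and 414, 41, 78 and 155 in ORP4L KI (log2 fold change 2.66, edgeR unadjusted p = 0.0116), and Ear2 (log2 fold change 1.05 ± 0.54 SE). Siglecf, a surface lectin of mature eosinophils, had 32, 105 and 61 reads in WT and 176, 73, 111 and 92 in ORP4L KI, with overlapping groups (log2 fold change 0.64 ± 0.46 SE, edgeR adjusted p = 0.622). Gata1, a transcription factor needed for the eosinophil lineage and also used by erythroid and mast cells, stood at a log2 fold change of -0.06 ± 0.35 SE. Csf2rb, the β chain shared by the receptors for interleukin-5, interleukin-3 and GM-CSF, stood at -0.42 ± 0.34 SE, and its paralog Csf2rb2 at -0.80 ± 0.27 SE. Adgre1, the F4/80 antigen of macrophages and eosinophils, had 614, 950 and 605 reads in WT and 527, 358, 485 and 307 reads in ORP4L KI. All ORP4L KI libraries were below WT for Adgre1 once scaled, as for 7.38% of all genes tested. Its log2 fold change was -0.92 ± 0.25 SE, which is short of the fold threshold (edgeR unadjusted p = 0.00508). Il5, the cytokine that drives eosinophil growth and is made by T-cells, had 6, 0 and 0 reads in WT and 0, 2, 0 and 0 reads in ORP4L KI, too few to be judged. Each library with 0 reads could hold up to 3 reads by counting error alone, which is 0.172 to 0.211 CPM in the libraries concerned.

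**Figure D2:**
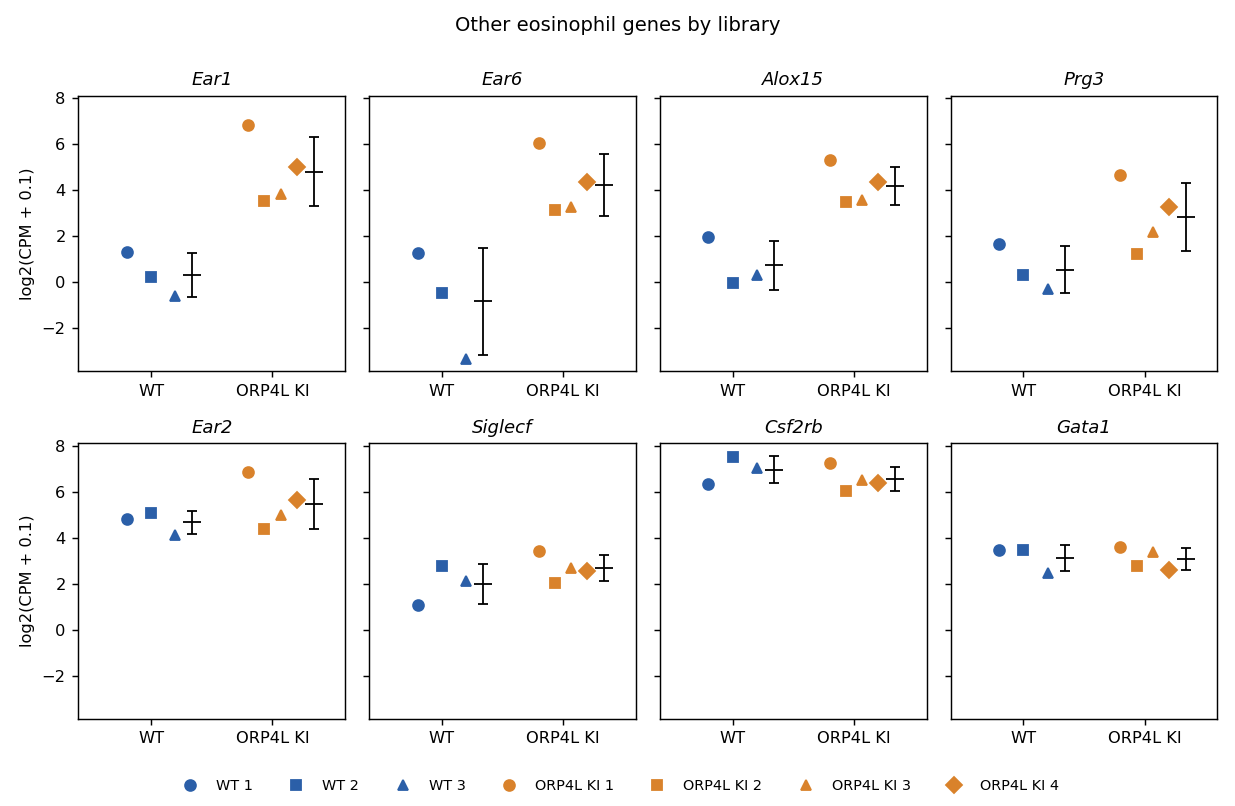
Level of 8 other eosinophil genes in each library, as log2(CPM + 0.1), in 3 WT (blue) and 4 ORP4L KI (orange) mice, with group mean and SD in black. Ear1, Ear6 and Alox15 separate the groups, while Siglecf, Csf2rb and Gata1 overlap.

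Mcpt8, a basophil protease that marks this cell type in mice, had 33, 18 and 12 reads in WT and 221, 14, 91 and 57 reads in ORP4L KI replicates 1 to 4. Replicates 1, 3 and 4 of ORP4L KI were above every WT library, and replicate 2 was below every WT library. The level was 1.34 ± 0.630 CPM (SD, n = 3) in WT and 5.75 ± 5.46 CPM (SD, n = 4) in ORP4L KI (log2 fold change 2.09 ± 0.81 SE, unadjusted p = 0.0291, edgeR adjusted p = 0.290). Without ORP4L KI replicate 1 the log2 fold change of Mcpt8 was 1.23. Mcpt8 was past the thresholds without ORP4L KI replicate 2 (2.44, edgeR unadjusted p = 0.00173), by DESeq2's Wald test and by edgeR's likelihood ratio test. Prss34, a tryptase-related protease of basophils and mast cells, had 31, 10 and 8 reads in WT and 300, 19, 121 and 82 reads in ORP4L KI. It followed the same order of ORP4L KI libraries, with replicate 2 at 1.04 CPM inside the WT range of 0.562 to 1.93 CPM. Prss34 was past the thresholds (log2 fold change 2.90 ± 0.88 SE, unadjusted p = 0.00905, edgeR adjusted p = 0.172). That call was kept in 2 of the 7 fits without one library and lost without WT replicate 2, WT replicate 3, or ORP4L KI replicate 1, 3 or 4, with log2 fold changes of 2.05 to 3.70 over the 7 fits.

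Cpa3, the carboxypeptidase A of mast cell granules, had 34, 25 and 24 reads in WT and 137, 36, 93 and 75 reads in ORP4L KI. Its level was 1.79 ± 0.285 CPM (SD, n = 3) in WT and 5.08 ± 2.62 CPM (SD, n = 4) in ORP4L KI, with replicate 2 (1.97 CPM) again inside the WT range. With an unadjusted p of 0.0104 by edgeR (log2 fold change 1.5 ± 0.47 SE, adjusted p = 0.178), it lay just outside the thresholds, and it was inside them with DESeq2's size factors (unadjusted p = 0.00991). Prss34, at 0.00905, was the member just inside. Exact permutation tests on log2 CPM gave two-sided p-values of 0.0857 for Cpa3, 0.0857 for Prss34 and 0.200 for Mcpt8.

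The IgE receptor genes were the least abundant. Fcer1a had 2, 0 and 5 reads in WT and 38, 5, 6 and 7 reads in ORP4L KI. Of its 63 reads, 38 came from ORP4L KI replicate 1, the remaining libraries held 7 or fewer each, and the gene did not pass the filter, so no fold change is given. Ms4a2, the β chain, had 21, 4 and 22 reads in WT and 28, 16, 32 and 20 reads in ORP4L KI. The groups overlapped, with WT replicate 2 lowest (log2 fold change 0.46 ± 0.57 SE, edgeR adjusted p = 0.819), and without that library the log2 fold change was -0.01. Fcer1g, the γ chain that this receptor shares with other Fc receptors and that many myeloid cells carry, had 2111 to 6827 reads in WT and 2113 to 10494 in ORP4L KI (log2 fold change 0.21 ± 0.54 SE). All 10 listed partners of IgE receptor signaling, among them Lyn, Syk and Btk, passed the filter, with a median log2 fold change of -0.14. None was called, where 4.68% of all genes tested were.

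Among 12 other mast cell proteases and mediators, 6 passed the filter, 1 was called higher and 1 lower, where 2.38% and 2.3% of all genes were. The median log2 fold change was -0.06. Cma1, a mast cell chymase, was lower in ORP4L KI. It had 203, 177 and 74 reads in WT and 35, 61, 37 and 29 reads in ORP4L KI, so that the groups were apart, as with every ORP4L KI library below WT for 7.38% of all genes tested. Its level fell 4.09-fold (log2 fold change -2.03 ± 0.37 SE, edgeR adjusted p = 0.0603), and it stayed past the thresholds in all 7 fits without one library. Alox5, the lipoxygenase of leukotriene synthesis in many myeloid cells, was higher, with 329, 496 and 339 reads in WT and 2450, 579, 1210 and 1641 reads in ORP4L KI (log2 fold change 1.81 ± 0.46 SE, edgeR adjusted p = 0.115). It was no longer past the thresholds without WT replicate 1 or WT replicate 3. Hdc, which makes histamine, had 4559 to 11997 reads in WT and 4023 to 15705 in ORP4L KI (log2 fold change 0.39 ± 0.50 SE). Apart from Cma1, the listed mast cell proteases (Tpsb2, Tpsab1, Tpsg1, Mcpt1, Mcpt2 and Mcpt4) were at or near 0. A library held at most 18 reads of Tpsb2, 17 of Mcpt4 and 2 of Mcpt1 and Mcpt2. There was 1 read of Tpsab1 in all, and no read of Tpsg1.

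Of 11 further regulators and receptors of basophils and mast cells, 8 passed the filter, with a median log2 fold change of -0.03. Of these, 0 were called higher and 1 was called lower, where 2.38% and 2.3% of all genes were. The gene called was Kit, the stem cell factor receptor of mast cells and progenitors. It had 1067, 1324 and 917 reads in WT and 604, 571, 661 and 474 reads in ORP4L KI, without overlap (log2 fold change -1.07 ± 0.19 SE, edgeR adjusted p = 0.0603). Without WT replicate 2 the log2 fold change of Kit was -0.95, outside the thresholds. Gata2, a transcription factor of basophils, mast cells and progenitors, had 100, 121 and 81 reads in WT and 163, 89, 209 and 201 in ORP4L KI (log2 fold change 0.59 ± 0.34 SE, edgeR adjusted p = 0.511).

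**Figure D3:**
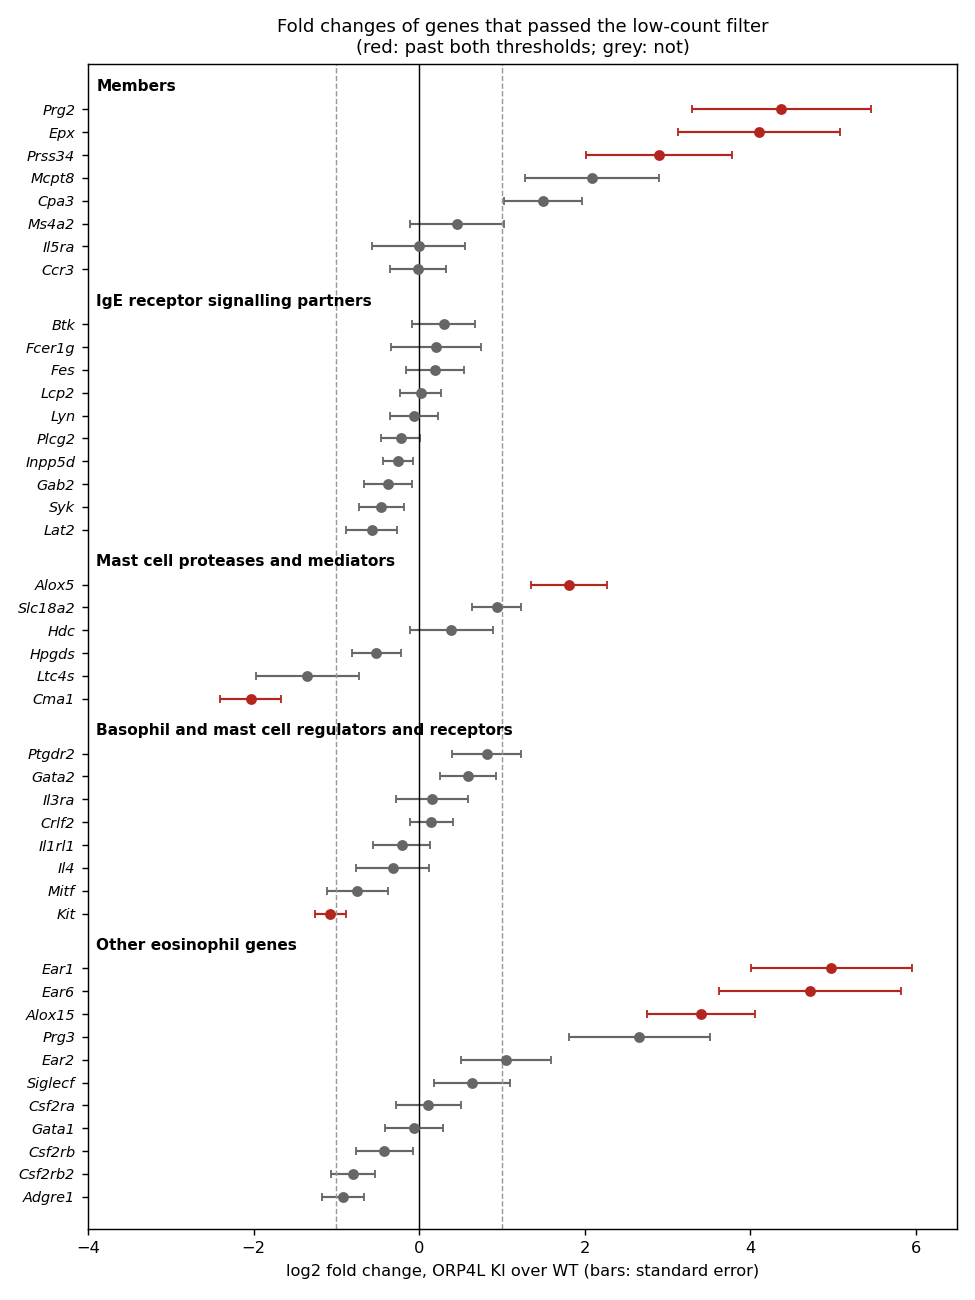
Log2 fold change of ORP4L KI over WT with its standard error, from edgeR's quasi-likelihood test, for the 8 members and the genes of 4 further lists that passed the filter for low counts. Red marks genes past both thresholds, a p below 0.01 before adjustment and a change of more than 1 log2 unit (dashed lines). The eosinophil granule genes Prg2 (4.37) and Ear1 (4.98) lie far to the right, and the receptor genes Il5ra and Ccr3 lie near 0. The mast cell chymase gene Cma1 (-2.03) and the receptor gene Kit (-1.07) lie to the left.

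Read numbers of the members were also set against those of Mpo, the peroxidase of neutrophil and monocyte precursors, in the same library. This ratio was chosen after the values were seen and is given without a test. Prg2 had 216, 294 and 251 reads per 1000 Mpo reads in WT replicates 1 to 3 and 277, 115, 164 and 257 in ORP4L KI replicates 1 to 4. Epx had 52.4, 22.8 and 51.8 per 1000 in WT and 37.8, 39.3, 36.2 and 62.4 in ORP4L KI. The groups thus overlapped for both eosinophil granule genes. Epx and Mpo are close paralogs, and how reads that match both were divided is not given, so their ratio is uncertain. Mpo was itself higher in ORP4L KI by 4.29 on the log2 scale, so that 97.1% of all genes tested were lower per Mpo read in every ORP4L KI library than in every WT library. The other 6 members were among these, and nothing particular to them is read from it. Mcpt8, as an example, had 15.9, 45.6 and 47.8 reads per 1000 Mpo reads in WT and 5.12, 2.03, 9.03 and 3.92 in ORP4L KI. With the sum of the 14 neutrophil granule genes in place of Mpo, 91.1% of all genes were lower without overlap, the groups overlapped for Prss34 and Ms4a2 too, and the difference of the mean log2 ratio for Prg2 changed from -0.40 to 0.56.

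**Figure D4:**
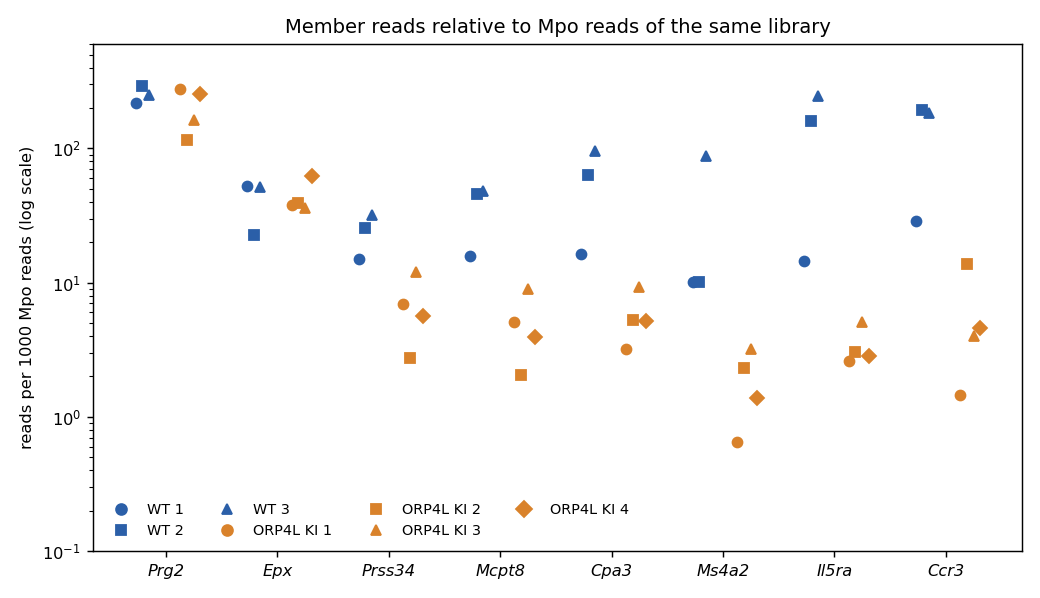
Reads of each of the 8 tested members per 1000 Mpo reads of the same library, on a log scale, in 3 WT (blue) and 4 ORP4L KI (orange) mice. Prg2 and Epx overlap between the groups, and the other members are lower in each ORP4L KI library than in each WT library, as were 97.1% of all genes tested.

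Across the 7 libraries, the levels of Prg2 and Epx followed each other (Pearson r = 0.973 on log2 CPM), as did those of Prss34 and Cpa3 (r = 0.985) and of Prss34 and Mcpt8 (r = 0.974). These values describe 7 libraries that share the split into groups and differ in depth. ORP4L KI replicate 1 had the highest level of 7 of the 9 members among ORP4L KI libraries, the exceptions being Ms4a2 and Ccr3. Among 13461 other genes, the closest in pattern to Epx were Alox15 (r = 0.993), Fcnb (0.990) and Mpo (0.987). The value for Mpo, a close paralog of Epx, carries the same uncertainty over shared reads as their ratio. Closest to Prg2 were Inpp5j (0.994), Gys1 (0.994) and Camp (0.993). Prss34 was nearest to Cpa3, Pcmt1 (0.983) and Troap (0.981), and Cpa3 to Rps6ka2 (0.988), Platr7 (0.986) and Prss34. For Mcpt8 they were Slc22a4 (0.981), Rsph1 (0.975) and Prss34. The nearest genes to Il5ra were Zfp516 (0.979), Pira2 (0.976) and Kctd12 (0.969), those to Ms4a2 were Rcbtb2 (0.952), Lrrc29 (0.948) and Mttp (0.937), and those to Ccr3 were Rbm44 (0.932), Igsf5 (0.925) and Lrrc73 (0.916).

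The 9 genes lie on 9 chromosomes. On GRCm38, the build of the submitters' processing notes (mm10), RefSeq places Mcpt8 at chr14:56082163-56085499, Fcer1a at chr1:173221269-173227232, Ms4a2 at chr19:11615517-11623790 and Cpa3 at chr3:20215616-20242209. Prss34 lies at chr17:25298394-25300168, Prg2 at chr2:84980461-84983632 and Epx at chr11:87863997-87875536. Il5ra lies at chr6:106710375-106749037 and Ccr3 at chr9:124017825-124031692. Within 100 kb of them are 57 other protein-coding genes, of which 27 passed the filter and 5 were called, all higher in ORP4L KI, where 2.38% of all genes tested were called higher. Mpo (log2 fold change 4.29) and Tspoap1 (1.69) neighbour Epx, Ctsg (4.57), a neutrophil granule protease, neighbours Mcpt8, Ms4a3 (5.34), a gene of granulocyte and monocyte precursors, neighbours Ms4a2, and Slc43a3 (1.10) neighbours Prg2. Among the members beside these, Ms4a2 and Mcpt8 were not past the thresholds themselves. In the protease cluster around Mcpt8, 9 of 10 neighbours did not pass the filter. These neighbours were chosen after the values were seen.

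The promoters of members that moved together were compared with those of members that did not. RefSeq promoter sequences of GRCm38.p6 were at hand for 8 of the 9 genes, and the 250 bases before each start site were searched on both strands for GATAA, the core recognised by GATA factors such as Gata1 and Gata2. It was found in 6 of the 8 (Fcer1a, Ms4a2, Cpa3, Prss34, Il5ra and Ccr3), and in 22.6% of 32851 promoters of the same length. The windows of Mcpt8 and Ccr3 lay wholly inside their annotated genes, as did the Ms4a2 matches at -37 and -10 from the start site. For Fcer1a, the bases after the start site were not found in a listed transcript. The letters TTNCNNAA, a pattern of C/EBP factors, were found in 2 of the 8 and in 36.8% of all. A GATAA match was thus found both in Prss34, which was called, and in Il5ra and Ccr3, which were not. GATAA was not in the windows of Epx and Mcpt8, though the level of Mcpt8 followed that of Prss34 (Pearson r = 0.974). Some of the sequences are shown from the strand of the gene, to compare a pair whose levels followed each other (Prss34 and Cpa3) with the most changed gene that has a sequence (Epx) and a receptor gene that was not called (Il5ra), with GATAA in capitals. Cpa3 is given only as far as the start of its annotated gene. The intervals are chr17:25298144-25298393 (plus strand) for Prss34, chr3:20242210-20242431 (minus) for Cpa3, chr11:87875537-87875786 (minus) for Epx and chr6:106749038-106749287 (minus) for Il5ra.
Prss34: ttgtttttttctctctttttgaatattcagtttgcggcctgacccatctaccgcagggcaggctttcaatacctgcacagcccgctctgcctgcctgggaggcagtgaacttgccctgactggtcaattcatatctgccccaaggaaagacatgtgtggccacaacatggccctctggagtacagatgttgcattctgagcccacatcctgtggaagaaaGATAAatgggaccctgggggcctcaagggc
Cpa3: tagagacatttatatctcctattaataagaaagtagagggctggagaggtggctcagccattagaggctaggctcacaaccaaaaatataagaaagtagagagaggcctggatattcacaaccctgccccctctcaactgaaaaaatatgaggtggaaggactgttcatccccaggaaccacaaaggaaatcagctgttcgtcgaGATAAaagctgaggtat
Epx: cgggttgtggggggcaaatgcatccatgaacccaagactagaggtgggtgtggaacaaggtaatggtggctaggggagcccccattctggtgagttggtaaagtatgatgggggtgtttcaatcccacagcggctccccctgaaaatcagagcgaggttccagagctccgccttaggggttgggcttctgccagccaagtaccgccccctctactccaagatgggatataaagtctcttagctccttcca
Il5ra: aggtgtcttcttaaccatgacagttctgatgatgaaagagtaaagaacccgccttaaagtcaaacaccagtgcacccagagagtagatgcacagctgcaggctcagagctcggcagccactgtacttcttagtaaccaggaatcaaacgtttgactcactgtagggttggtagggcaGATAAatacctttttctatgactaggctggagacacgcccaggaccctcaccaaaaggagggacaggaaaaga
The match in Prss34 starts 30 bases before the start site, that in Cpa3 45 bases and that in Il5ra 73 bases before it.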

How the data were processed

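RNA sequencing of T-cells from 4 ORP4L KI and 3 WT mice was used, 1 library per mouse. The authors trimmed adapters, discarded reads under 17 nt, used FANSe3 to map the rest to a mouse mRNA reference and merged splice variants by gene. The deposited read counts are raw. RPKM values, which the authors computed on the longest transcript, were used here only to compare levels between genes. The FANSe3 version and the handling of reads that match several genes are not given in the sources used here, so counts of close paralogs are uncertain.

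The tests ran in edgeR 4.0.16 under R 4.3.3. Low counts were removed with filterByExpr (about 10 reads in enough libraries and 15 in all), libraries were scaled by TMM, and ORP4L KI was compared with WT by the quasi-likelihood test without covariates, with Benjamini-Hochberg adjustment over all genes. The thresholds are the lines the authors drew in their volcano plot. The standard error is the size of the log2 fold change over the square root of F. For each gene an exact permutation test was added, of the difference in mean log2(CPM + 0.1). Alternatives were DESeq2 1.42.0, other scalings and filters, the likelihood ratio test, a replicate block and each library left out. No pair of libraries agreed within sampling noise. Floors cover counting error only, and p-values measure the spread between these mice.

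The members and lists were chosen with earlier results of these data known. Genes named are the 9 members, the genes of 4 lists (IgE receptor signaling, mast cell proteases and mediators, regulators and receptors, other eosinophil genes) past the thresholds with 8 fixed ones (Fcer1g, Kit, Gata2, Gata1, Csf2rb, Siglecf, Il5 and Hdc), and the 3 genes closest in pattern to each member. Prg3, Ear2 and the other genes named outside this rule were chosen after their values were seen. The summed level of markers of further cell types is not reported here. Those of them named were chosen after their values were seen. Other steps used SciPy 1.17.1, pandas 2.3.3 and, for plots, Matplotlib 3.10.9, in Python 3.11.15.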

Additional observations from a re-analysis of the deposited data

Results flagged for a closer look

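Among 54 groups of 4 ORP4L KI libraries, 1 per gene or list, 2 held a library far from the others, where chance alone gives about 2.7. Fcer1a stood at 2.31 CPM in ORP4L KI replicate 1, which rests on 38 reads, and at 0.274 to 0.435 CPM in the other 3 libraries. Inpp5d, a phosphatase that dampens IgE receptor signaling, stood at 166 CPM in ORP4L KI replicate 1 and at 212 to 219 CPM in the other 3.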

How the results depend on the processing

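Of 109 values of single members under the alternatives, 80 kept both direction and call, 8 lost the call, 9 gained it and 12 changed sign. The fit of replicates 1 to 3 without a block is the fit without ORP4L KI replicate 4 and was counted once. The number of members past the thresholds, 3, was 5 with DESeq2's Wald test, 5 with the likelihood ratio test and 5 at an unadjusted p under 0.05 without a fold limit, and ranged from 0 to 5 with one library left out. Members reaching an adjusted p of 0.05 numbered 0, but 4 in DESeq2's Wald test, 3 by likelihood ratio, 2 under the replicate block, and 0 to 4 with one library left out. Over all genes, the count past the thresholds (630) ranged from 328 to 805 with one library left out, and that with an adjusted p below 0.05 (3) rose to 784 in DESeq2's Wald test, 706 by likelihood ratio, 113 with total counts alone, 176 without a filter and 48 under the replicate block, and lay between 0 and 342 with one library left out. Total counts alone called 275 genes higher and 407 lower, against 320 and 310, and gave a median log2 fold change of all genes of -0.13, against 0.01.

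Il5ra reversed to 0.0063 with DESeq2's size factors, 0.0066 with the Wald test and 0.099 in replicates 1 to 3 without a block, and ranged from -0.62 to 0.26 with one library left out. Ccr3 reversed to 0.00054 and 0.00023 with the size factors and the Wald test, and ranged from -0.20 to 0.17. Ms4a2 ranged from -0.0097 to 0.86. The cause was not tested. Fcer1a passed no filter and has no tested value, except without a filter.

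Same-numbered libraries of both groups deviated together no more than others (mean correlation across genes -0.129, against 0.058), so the numbers were not taken as pairs. With the replicate number as a block in replicates 1 to 3, the number of members past the thresholds was 3 against 2 in the same libraries unblocked, and the number reaching an adjusted p of 0.05 was 2 against 0. Over all genes these counts were 466 against 442 and 48 against 0. Fcer1a and Il5 had too few reads to be tested.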
